A study of Mus musculus with 12 samples.

Results

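The 10 genes described here are Notch receptors and genes that respond to or tune Notch signaling. They are the receptor genes Notch1, Notch2 and Notch3, the receptor-modifying enzyme gene Lfng, the feedback inhibitor gene Nrarp, and the effector genes Hes1, Hes5, Hey1, Hey2 and Heyl. They were taken by gene symbol from the 19336 named loci of the count matrix, which lists 21312 loci in all, and not by a threshold on their values. The set was chosen with earlier results of these data known, so its share of calls beside that of all genes is a description. All 10 were found, and all 10 are among the 15656 genes that passed the filter on low counts. Heyl passed only through the groups in which it was higher, so counts of genes are also given without it.

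Hippocampal cells of WT mice at P4 were cultured for 8 d, per the labels, and RNA was sequenced in 4 groups of 3 libraries each. The paper places RNA collection later in culture than these labels do, and its figure legend gives a slightly wider range of mouse ages. Vehicle cultures received DMSO and PBS, the solvents of the 2 agents. The sErbB4 cultures received 20 nM of a recombinant soluble ectodomain of ErbB4, the receptor of Nrg1, named as mouse and as human in different passages of the sources, for 4 h before RNA was collected. The DAPT cultures received DAPT, an inhibitor of γ-secretase, at 20 µM as a pretreatment, given as overnight or as about a day in different passages of the sources, and the DAPT + sErbB4 cultures received DAPT and then sErbB4. All groups carried the same WT genotype. Cultures came from 3 platings per group, made from several mice of several litters, and the labels do not say whether libraries with the same number share a plating, so p values measure the spread between cultures that may share animals.

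Notch receptors are cut within the membrane by γ-secretase after a ligand on a neighboring cell binds them. The freed intracellular domain enters the nucleus, joins the DNA-binding protein Rbpj and switches on genes such as those of the Hes and Hey families, which encode repressors of transcription. In the developing brain this pathway is known for keeping neural progenitors from becoming neurons. Lfng adds a sugar to Notch receptors and alters which ligands activate them, and Nrarp binds the intracellular domain complex and limits its action. Notch3 and Heyl are also known as genes of pericytes and vascular smooth muscle.

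Levels are given in CPM, which are estimated counts per 1000000 counts on named loci after scaling by the trimmed mean of M values (TMM), as mean ± SD with n = 3 libraries unless stated otherwise. Longer transcripts had no larger estimated counts (Spearman's rho of -0.085 across 12534 genes above a mean of 50 counts, a description over genes that share all libraries). CPM was read as a level per transcript, an assumption that this correlation does not establish. The order of levels and the sums and shares of the receptors rest on it. A gene was called when its Benjamini-Hochberg adjusted p over all 15656 genes was under 0.05 in edgeR's quasi-likelihood test and its log2 fold change was beyond 0.32 in either direction (the fold limit). Library totals ran from 36.5 to 54.4 estimated counts in units of 1000000, of which 18.7 to 30.8 of these units fell on named loci. Replicate 1 of sErbB4 stood apart from replicates 2 and 3 on the second principal component (47.8 against -15.9 and -16.7), as did Vehicle replicate 3 from its group (30.2 against 0.427 and -11.1). The cultures are labeled neuronal, and the neuronal genes Map2 (135 CPM in Vehicle) and Rbfox3 (22.0 CPM) were present beside the astrocyte gene Gfap at 4230 CPM. In RNA from a mixed culture, fewer cells of a type and less RNA per cell cannot be told apart.

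Upstream sequences are given for 4 of the genes, with and without letters of the site that Rbpj binds. The promoter table, from RefSeq on GRCm38.p6, holds 7 of the 10 genes (Notch1, Notch2, Notch3, Hes5, Hey2, Nrarp and Lfng), and Hes1, Hey1 and Heyl were not matched. The letters GTGGGAA, a core form of the site that Rbpj binds, were searched on both strands in windows from 250 bases before to 50 bases after each start. They occurred in 3 of the 7 windows, those of Hes5, Hey2 and Lfng, and in 2097 of all 32851 windows (6.38%). The shorter letters TGGGAA, which are contained in the longer form, occurred in the same 3 windows and in 25.6% of all. The 200 bases that end 51 bases before the start are printed 5′ to 3′ on the strand of the gene. Matches to GTGGGAA on either strand are in capitals, and matches to the shorter letters alone are not marked. The stretches are those of Hes5 and Lfng, which were lower with DAPT, of Hey2, which has the same letters and was not called, and of Notch3, which has none of them in its window.
Hes5, chr4:154960673-154960872, plus strand: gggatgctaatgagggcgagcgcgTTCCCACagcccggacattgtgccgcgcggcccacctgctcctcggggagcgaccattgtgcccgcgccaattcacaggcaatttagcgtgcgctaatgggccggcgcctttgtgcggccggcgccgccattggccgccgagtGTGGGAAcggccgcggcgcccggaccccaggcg
Lfng, chr5:140607091-140607290, plus strand: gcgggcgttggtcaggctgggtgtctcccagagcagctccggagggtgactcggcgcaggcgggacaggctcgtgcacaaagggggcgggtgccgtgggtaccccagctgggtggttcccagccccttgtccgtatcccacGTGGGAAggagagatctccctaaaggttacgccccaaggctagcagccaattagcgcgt
Hey2, chr10:30842834-30843033, minus strand: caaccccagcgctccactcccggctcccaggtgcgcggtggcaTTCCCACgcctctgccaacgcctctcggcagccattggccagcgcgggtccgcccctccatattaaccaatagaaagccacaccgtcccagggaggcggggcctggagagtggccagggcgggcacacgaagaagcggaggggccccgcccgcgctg
Notch3, chr17:32166941-32167140, minus strand: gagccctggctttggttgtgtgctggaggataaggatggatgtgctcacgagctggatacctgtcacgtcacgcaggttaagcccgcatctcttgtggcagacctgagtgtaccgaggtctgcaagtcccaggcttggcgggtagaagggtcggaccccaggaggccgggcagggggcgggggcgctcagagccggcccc
Hes5 had a match on the other strand (TTCCCAC), 226 to 220 bases upstream, and a match on its own strand 83 to 77 bases upstream. In Lfng the match lay 109 to 103 bases upstream. Hey2 had a match on the other strand 207 to 201 bases upstream and another that spans its start site and lies outside the printed stretch. GC content of the printed stretches was 71% for Hes5, 66% for Lfng, 70.5% for Hey2 and 64.5% for Notch3. Matches to letters are a description and show no binding.

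Most of the 10 genes were lower with DAPT, and Notch2 was higher. In DAPT against Vehicle, 7 of 10 were called, with 1 higher (Notch2) and 6 lower (Notch1, Notch3, Lfng, Hes1, Hes5 and Heyl), while 11.6% of all genes tested were called. In DAPT + sErbB4 against sErbB4, 8 of 10 were called, with the same 7 and Hey1, which was lower, against 11.7% of all genes. Without Heyl the counts were 6 and 7 of 9. The median log2 fold change over the 10 genes was -0.81 and -0.83, against 0.007 and 0.01 over all genes tested. Without Heyl the median was that of Notch1, at -0.47 and -0.43. These 2 comparisons share no libraries.

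**Figure D1:**
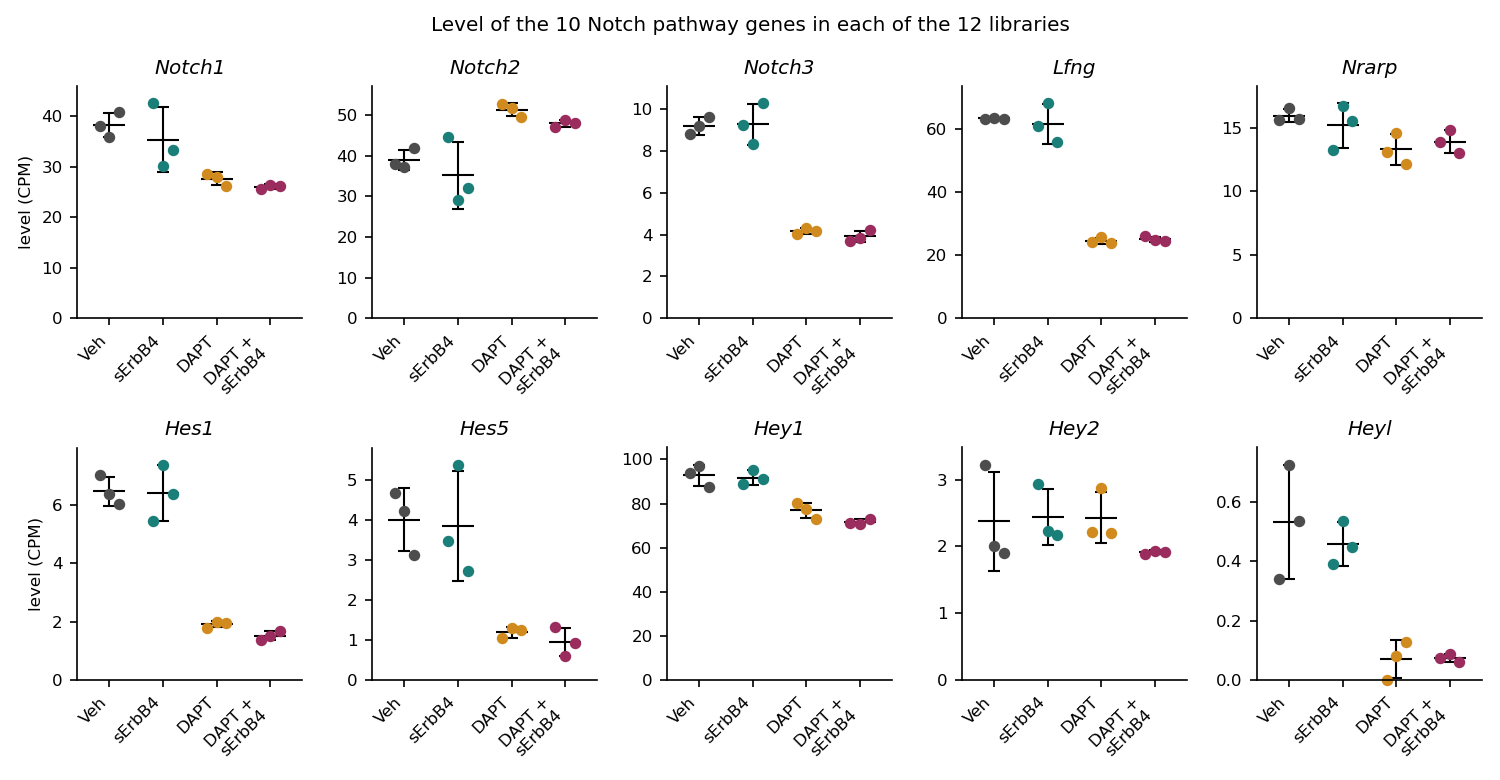
Level in CPM (y axis, from 0) of each of the 10 genes in the 4 groups (x axis). Points are libraries, horizontal lines are means and bars are SDs of 3 libraries. Lfng lies between 55.8 and 68.2 CPM in the 6 libraries without DAPT and between 24.0 and 25.9 CPM in the 6 with DAPT, while Notch2 is higher and Hey2 overlaps.

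The 3 receptor genes did not move together. Notch1 (chromosome 2, 26457903 to 26516663, minus strand) is the receptor known for its role in neural progenitors. It was measured at 38.0, 35.95 and 40.8 CPM in the Vehicle libraries and at 28.6, 28.0 and 26.2 CPM in the DAPT libraries. The sErbB4 libraries were at 42.5, 30.1 and 33.3 CPM and the DAPT + sErbB4 libraries at 25.5, 26.4 and 26.2 CPM. All 6 libraries with DAPT were below all 6 without it, and sErbB4 replicate 1 was the highest of the 12. The log2 fold change in DAPT against Vehicle was -0.47 with an SE of 0.10 (adjusted p = 0.0063 by the quasi-likelihood test of edgeR) and -0.43 (SE 0.10, adjusted p = 0.0096, same test) in DAPT + sErbB4 against sErbB4. Without sErbB4 replicate 1 the latter was -0.28 (adjusted p = 0.0089, edgeR), which is under the fold limit. With no TMM factor the former was -0.27 (adjusted p = 0.14, edgeR). Notch1 overlaps an antisense gene, 0610009E02Rik (mean 29.1 estimated counts), and whether counting used strand is not given in the sources used here. The same doubt holds for Notch3, Hes5 and Nrarp, whose loci overlap annotated antisense genes over 21024, 756 and 2559 bases.

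Notch2 (chromosome 3, 98013527 to 98150361, plus strand), a second receptor of progenitors and glia, was higher with DAPT. Vehicle libraries had 38.0, 37.4 and 41.8 CPM, and DAPT libraries had 52.8, 51.7 and 49.6 CPM. With sErbB4 alone the values were 44.6, 29.1 and 32.0 CPM, and with DAPT + sErbB4 they were 47.1, 48.9 and 48.0 CPM. The 6 libraries with DAPT were all above the 6 without it, although the gap to sErbB4 replicate 1 was small. Its log2 fold change was 0.39 (SE 0.12, adjusted p = 0.035, edgeR) and 0.45 (SE 0.12, adjusted p = 0.018, edgeR) in the 2 DAPT comparisons. The call was lost when single libraries were left out. In DAPT against Vehicle it was lost without Vehicle replicate 1 or 2 or without any of the 3 DAPT replicates (log2 fold change 0.36 to 0.43, adjusted p up to 0.11, edgeR). In DAPT + sErbB4 against sErbB4 it was lost without sErbB4 replicate 2 or 3 or DAPT + sErbB4 replicate 2 or 3 (0.32 to 0.44, adjusted p = 0.055 to 0.065, edgeR), with no TMM factor (adjusted p = 0.14, edgeR) and when only the 6 libraries compared were fitted (adjusted p = 0.069, edgeR). Averaged over cultures with and without sErbB4, the DAPT effect on Notch2 was 0.42 (SE 0.09, adjusted p = 0.0022, edgeR).

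Notch3 (chromosome 17, 32120820 to 32166852, minus strand) had the lowest level and the largest change of the 3 receptors. Its levels were 8.79, 9.18 and 9.63 CPM with Vehicle, 9.22, 8.32 and 10.3 CPM with sErbB4, 4.00, 4.31 and 4.19 CPM with DAPT, and 3.68, 3.86 and 4.20 CPM with DAPT + sErbB4. Every library with DAPT was far below every library without it. Levels with DAPT were 45.3% of Vehicle (95% interval 39.6 to 51.7%), a log2 fold change of -1.14 (SE 0.09, adjusted p = 4.1e-06, edgeR), and 42.5% of sErbB4 (37.3 to 48.5%), a log2 fold change of -1.23 (SE 0.09, adjusted p = 1.9e-06, edgeR).

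The proportions of the 3 receptors differed between the groups with and without DAPT, while their sum differed little. The CPM of the 3 genes summed to 86.5 ± 5.11 in Vehicle, 79.8 ± 14.9 in sErbB4, 83.1 ± 2.81 in DAPT and 77.9 ± 1.5 in DAPT + sErbB4, and the ranges of these sums overlapped between Vehicle and DAPT. Notch2 made up 45.1 ± 0.303% of the sum in Vehicle and 43.9 ± 2.09% in sErbB4, and 61.8 ± 0.233% in DAPT and 61.6 ± 0.325% in DAPT + sErbB4. Notch1 was at 44.2 ± 0.628% in Vehicle and 33.2 ± 0.383% in DAPT, and at 44.3 ± 0.289% in sErbB4 against 33.4 ± 0.0754% in DAPT + sErbB4. The share of Notch3 was 10.6 ± 0.42% in Vehicle and 11.8 ± 2.06% in sErbB4, and 5.02 ± 0.294% and 5.02 ± 0.293% in the groups with DAPT. Shares do not depend on the scaling between libraries, and replicate 1 of sErbB4, with the highest receptor sum (96.4 CPM), had a Notch2 share of 46.3%, below all libraries with DAPT.

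**Figure D2:**
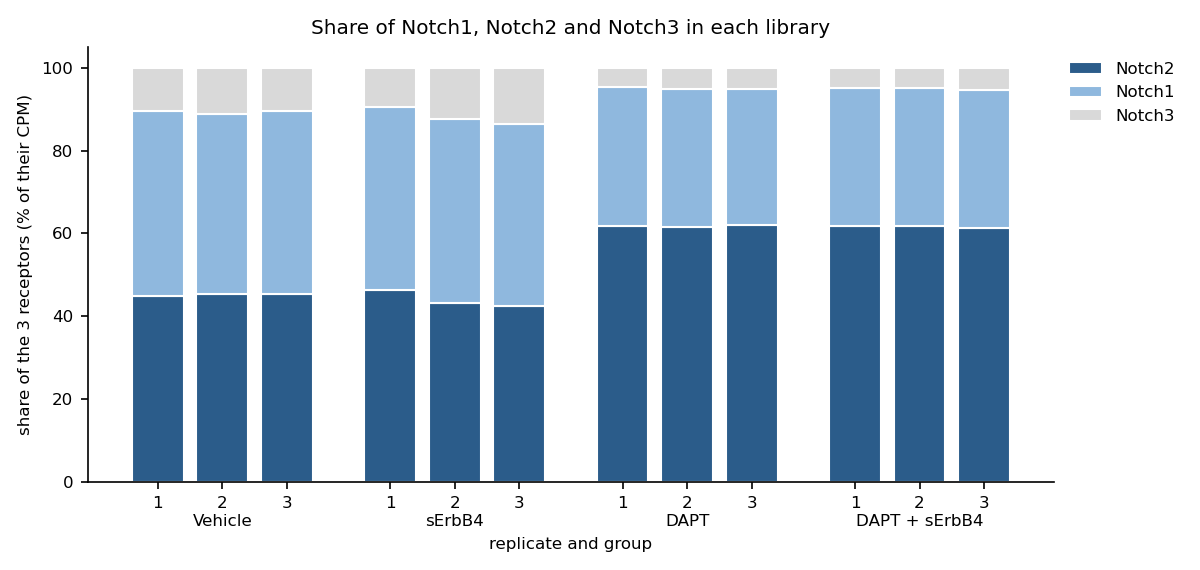
Share of each receptor gene in the summed CPM of Notch1, Notch2 and Notch3 (y axis, %) in each library (x axis, replicate and group). The Notch2 segment spans 42.4 to 46.3% in the 6 libraries without DAPT and 61.2 to 62.0% in the 6 libraries with DAPT.

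Lfng (chromosome 5, 140607320 to 140615545, plus strand), the glycosyltransferase gene, had the smallest adjusted p of the 10 genes in both DAPT comparisons. Vehicle libraries were at 63.3, 63.6 and 63.3 CPM and sErbB4 libraries at 60.9, 68.2 and 55.8 CPM. With DAPT the values were 24.1, 25.8 and 24.0 CPM, and with DAPT + sErbB4 they were 25.9, 24.7 and 24.4 CPM. The groups with and without DAPT were separated by a wide gap. The log2 fold change was -1.37 (SE 0.07, adjusted p = 1.1e-07, edgeR) in DAPT against Vehicle and -1.30 (SE 0.07, adjusted p = 1.3e-07, edgeR) in DAPT + sErbB4 against sErbB4.

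Nrarp (chromosome 2, 25180758 to 25183339, plus strand), the feedback inhibitor gene, was not called in either DAPT comparison. Its levels were 15.6, 16.5 and 15.7 CPM with Vehicle, 13.3, 16.7 and 15.5 CPM with sErbB4, 13.1, 14.6 and 12.1 CPM with DAPT, and 13.9, 14.8 and 13.0 CPM with DAPT + sErbB4. The Vehicle and DAPT ranges did not overlap, whereas the sErbB4 and DAPT + sErbB4 ranges did. The log2 fold change was -0.27 (95% interval -0.46 to -0.07, adjusted p = 0.053, edgeR) and -0.13 (-0.33 to 0.06, adjusted p = 0.33, edgeR). Without DAPT replicate 2 the former was -0.34 and called (adjusted p = 0.03, edgeR). The intervals leave room for a change of up to about the fold limit or somewhat more, and do not include a change as large as that of Lfng.

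Both Hes genes were lower with DAPT. Hes1 (chromosome 16, 30064384 to 30067796, plus strand), a repressor that keeps progenitors undifferentiated, was at 7.02, 6.39 and 6.03 CPM in Vehicle libraries and 1.79, 1.97 and 1.95 CPM in DAPT libraries. It was at 5.46, 7.39 and 6.39 CPM with sErbB4 and 1.37, 1.51 and 1.67 CPM with DAPT + sErbB4. The lowest library without DAPT was well above the highest with it. Levels with DAPT were 29.5% of Vehicle (95% interval 24.2 to 35.9%, log2 fold change -1.76, SE 0.13, adjusted p = 3e-06, edgeR) and 23.7% of sErbB4 (19.4 to 28.9%, log2 fold change -2.08, SE 0.13, adjusted p = 9.8e-07, edgeR). Hes5 (chromosome 4, 154960923 to 154962371, plus strand), a related repressor of neural progenitors, changed by a like amount with a wider spread. Vehicle libraries had 4.67, 4.21 and 3.13 CPM and sErbB4 libraries 3.47, 5.38 and 2.71 CPM, against 1.03, 1.30 and 1.23 CPM with DAPT and 1.31, 0.604 and 0.929 CPM with DAPT + sErbB4. Again no library with DAPT reached the lowest without it. Its log2 fold change was -1.76 (SE 0.30, adjusted p = 0.0013, edgeR) and -2.04 (SE 0.30, adjusted p = 5e-04, edgeR).

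The Hey genes, which encode repressors related to the Hes proteins, differed in level and in change, and Heyl was near the limit of detection. Hey1 (chromosome 3, 8663359 to 8667256, minus strand) had the highest level of the 10 genes in every group. It was at 94.0, 96.9 and 87.5 CPM with Vehicle, 88.8, 95.5 and 91.2 CPM with sErbB4, 80.0, 77.6 and 73.2 CPM with DAPT, and 71.4, 70.5 and 72.9 CPM with DAPT + sErbB4. Libraries with DAPT were all lower than those without, by a small margin. The log2 fold change was -0.27 (SE 0.05, adjusted p = 0.0021, edgeR) in DAPT against Vehicle, which is under the fold limit and so was not called, and -0.36 (SE 0.05, adjusted p = 3e-04, edgeR) in DAPT + sErbB4 against sErbB4, which was called. The difference between these changes was -0.09 (SE 0.07) and was not called (adjusted p = 1, edgeR).

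Hey2 (chromosome 10, 30832359 to 30842801, minus strand) was not called in either comparison. Its levels were 3.22, 2.00 and 1.89 CPM with Vehicle, 2.93, 2.22 and 2.17 CPM with sErbB4, 2.22, 2.87 and 2.20 CPM with DAPT, and 1.88, 1.94 and 1.92 CPM with DAPT + sErbB4. The Vehicle and DAPT values were interleaved, and Vehicle replicate 1 was the highest of the 12. In DAPT against Vehicle the log2 fold change was 0.01 (95% interval -0.45 to 0.47, adjusted p = 0.99, edgeR). In DAPT + sErbB4 against sErbB4, whose ranges did not overlap, it was -0.36 (-0.82 to 0.10, adjusted p = 0.26, edgeR). Both intervals lie above the changes of Hes1 and Hes5.

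Heyl (chromosome 4, 123233556 to 123249875, plus strand) was near the limit of detection. Vehicle libraries held 8.68, 12.9 and 11.8 estimated counts (0.340, 0.726 and 0.535 CPM) and sErbB4 libraries 9.69, 16.8 and 11.0 (0.390, 0.537 and 0.449 CPM). DAPT libraries held 0, 1.77 and 3.89 estimated counts (0, 0.0790 and 0.127 CPM), and DAPT + sErbB4 libraries 1.72, 2.40 and 1.64 (0.0746, 0.0870 and 0.0585 CPM). A count of 0 in DAPT replicate 1 allows a level of up to 0.117 CPM (3 counts, counting error only, with estimated counts taken as read counts). Summed over libraries, the level was 7.09-fold higher in Vehicle than in DAPT (95% exact interval 2.74 to 19.3) and 6.35-fold higher in sErbB4 than in DAPT + sErbB4 (2.52 to 17.5). These Clopper-Pearson intervals cover counting error only. They take rounded sums of estimated counts as read counts, so they are approximate. Heyl passed the filter on low counts only through the groups in which it was higher, so its tests are a description. The fitted log2 fold changes were -2.76 (SE 0.69, adjusted p = 0.013, edgeR) and -2.53 (SE 0.69, adjusted p = 0.019, edgeR), and they depend on the prior count. The call was lost without Vehicle replicate 2 (adjusted p = 0.059, edgeR) in the former and without sErbB4 replicate 2 or any of the 3 DAPT + sErbB4 replicates in the latter (adjusted p = 0.067 to 0.083, edgeR).

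**Figure D3:**
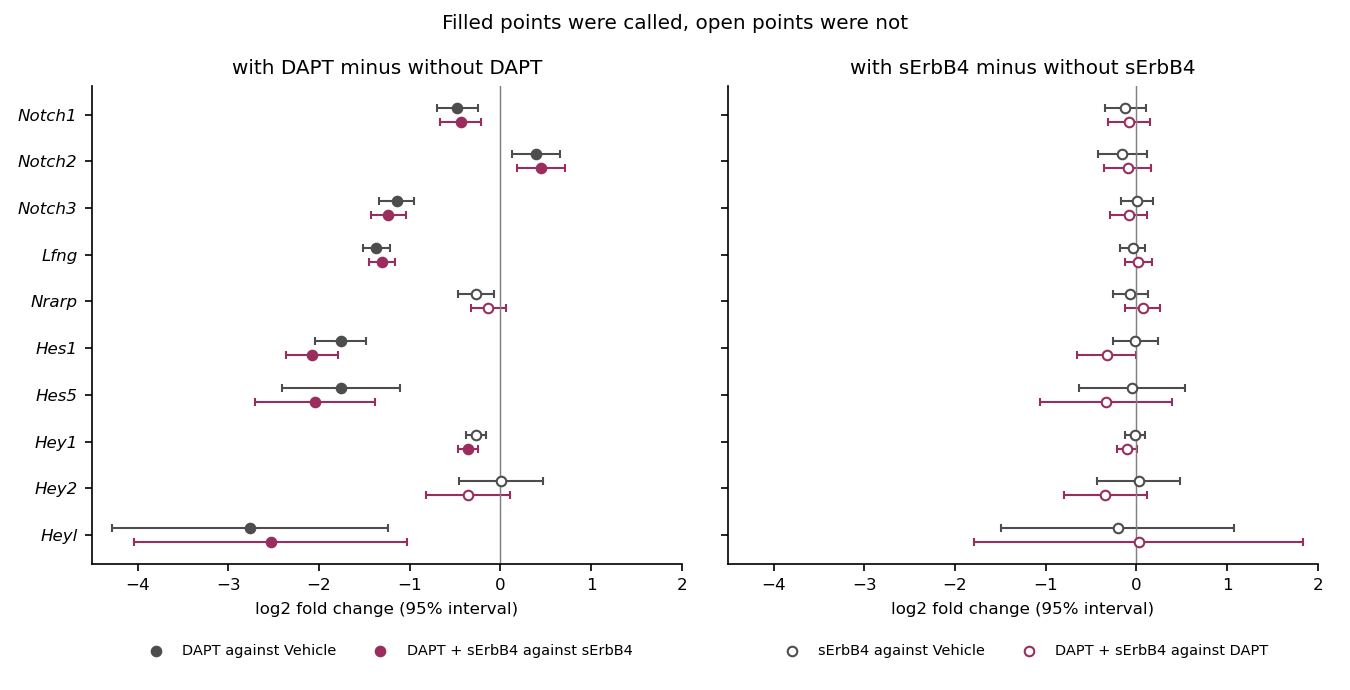
Log2 fold changes of the 10 genes (x axis) with 95% intervals from edgeR, for the 2 comparisons with and without DAPT (left) and the 2 with and without sErbB4 (right). Filled points were called and open points were not. On the left 6 genes are called lower and Notch2 higher in both comparisons, and on the right no gene is called.

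Averaged over cultures with and without sErbB4, the DAPT effect was called for 7 of the 10 genes, with Notch2 higher and Notch1, Notch3, Lfng, Hes1, Hes5 and Heyl lower, against 13.2% of all genes, and for 6 of 9 without Heyl. This average is made from the same libraries as the 2 comparisons above. Hey1 (log2 fold change -0.31, SE 0.03, adjusted p = 2.9e-05, edgeR) and Nrarp (-0.20, SE 0.06, adjusted p = 0.027, edgeR) passed on p but not on the fold, and Hey2 did not pass (-0.18, SE 0.15, adjusted p = 0.39, edgeR). In sErbB4 against DAPT, which shares libraries with the others, 7 of 10 genes were called, 6 higher and 1 lower, against 10.1% of all genes, and 6 of 9 without Heyl. The split of calls between higher and lower depended on scaling. With library totals and no TMM factor, the median log2 fold change of all genes in DAPT against Vehicle was 0.206, and 2734 genes were called higher and 476 lower, against 730 and 1083 with TMM. In DAPT + sErbB4 against sErbB4 the split was 308 higher and 1236 lower, against 712 and 1120. Under that scaling the log2 fold changes of Notch2 stayed positive and those of the 6 genes called lower in both comparisons stayed negative, although Notch1 lost its call in DAPT against Vehicle and Notch2 in DAPT + sErbB4 against sErbB4.

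Adding sErbB4 for 4 h had no detected effect on the 10 genes. In sErbB4 against Vehicle, 0 of 10 were called by edgeR, as by DESeq2 and limma, and 0 had an unadjusted p under 0.05 in edgeR (smallest adjusted p = 0.84), while 5 of all genes (0.0319%) were called and 1184 had an unadjusted p under 0.05. The precision differed among genes. Hey1 was at 99.0% of Vehicle (95% interval 91.8 to 107%), Lfng at 97.3% (88.6 to 107%) and Hes1 at 99.3% (83.3 to 118%). Hes5 was at 96.5% (64.4 to 145%) and Heyl at 86.8% (35.6 to 212%). These unadjusted intervals leave out changes of the size of the fold limit in Hey1, Lfng and Hes1 but not in Hes5 or Heyl. Whether a change of that size would have been called was not tested.

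With γ-secretase inhibited in both groups, DAPT + sErbB4 against DAPT also gave 0 of 10 called by edgeR, as by DESeq2 and limma, and 0 with an unadjusted p under 0.05 in edgeR (smallest adjusted p = 0.56). Of all genes 0 (0%) were called, while 1442 had an unadjusted p under 0.05, and DESeq2 called 8. Hes1 was lower in every DAPT + sErbB4 library than in any DAPT library, at 79.7% (95% interval 63.8 to 99.7%, unadjusted p = 0.066, which edgeR keeps from falling below that of a Poisson test, and adjusted p = 0.57). Hey1 (93.1%, 86.3 to 100%, adjusted p = 0.56, edgeR), Hey2 (78.9%, 57.3 to 109%, adjusted p = 0.68, edgeR) and Notch2 (93.5%, 78.1 to 112%, adjusted p = 0.89, edgeR) also had ranges that did not overlap, and none of the 4 was called. The share of all genes with such separated ranges was not counted, so the 4 are a description and not a sign of an effect. The sErbB4 effect with DAPT did not pass a test of its difference from that without DAPT in any of the 10 genes (interaction log2 values from -0.37 for Hey2 to 0.23 for Heyl, adjusted p = 1, edgeR, 0 at an unadjusted p under 0.05), and 0 of 10 were called by edgeR, DESeq2 and limma, while edgeR called 1 of all genes (0.00639%).

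The order of levels changed with DAPT. In Vehicle it ran from Hey1 (92.8 ± 4.83 CPM) through Lfng (63.4 ± 0.142), Notch2 (39.1 ± 2.42), Notch1 (38.3 ± 2.43), Nrarp (16.0 ± 0.498), Notch3 (9.20 ± 0.419), Hes1 (6.48 ± 0.505), Hes5 (4.00 ± 0.791) and Hey2 (2.37 ± 0.738) to Heyl (0.534 ± 0.193). The ranges of Notch2 and Notch1 overlapped, as did those of Hes5 and Hey2, and the other neighbors did not overlap. In sErbB4 the same pairs overlapped. With DAPT, Notch2 (51.3 ± 1.63 CPM) took the second place, Notch1 (27.6 ± 1.2) the third and Lfng (24.6 ± 0.982) the fourth, and Hey2 (2.43 ± 0.385) stood above Hes1 (1.90 ± 0.103) and Hes5 (1.19 ± 0.138), with no overlap between neighbors. The order was the same in DAPT + sErbB4, where Notch1 (26.1 ± 0.459 CPM) and Lfng (25.0 ± 0.835) overlapped.

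Other genes of the pathway were called at about the rate of all genes tested. Of 60 further pathway genes listed, 59 were measured and 55 tested. In DAPT against Vehicle 2 were called higher and 4 lower, while 11.6% of all genes were called, and in DAPT + sErbB4 against sErbB4 1 was higher and 7 lower, against 11.7% of all genes. Their median log2 fold changes were 0.009 and -0.009. Of 8 ligand genes, 2 and 3 were lower. Jag1, a transmembrane ligand, had log2 fold changes of -0.92 (SE 0.10, adjusted p = 3.8e-05, edgeR) and -0.95 (SE 0.09, adjusted p = 2.5e-05, edgeR), and the Delta ligand gene Dll1 had -0.34 and -0.47. Dll3, a Delta-like gene, had -0.40, not called, and -0.48, called. Of the 7 γ-secretase subunit genes, which encode the target of DAPT, edgeR called 0 in either comparison, with 3 and 5 at an unadjusted p under 0.05.
Of 16 genes of receptor processing and sorting, 1 was lower in the former and 2 were lower and 1 higher in the latter. Dtx4, of the Deltex ubiquitin ligase family, was lower in both (-0.37 in each). Notch4, the fourth receptor, stood at 0.943 CPM in Vehicle, and its log2 fold changes were -0.53 (adjusted p = 0.2, edgeR) and -0.98 (adjusted p = 0.022, edgeR). Numbl, related to the Notch antagonist Numb, had 0.30 and, called, 0.47. Of the 15 nuclear complex genes, the corepressor gene Tle1 was lower in both (-0.39 in each) and the coactivator gene Maml3 higher only by the call in DAPT against Vehicle (0.39, against 0.23). Neurl1a, which acts on ligands, had 0.39, called, and 0.28.

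**Figure D4:**
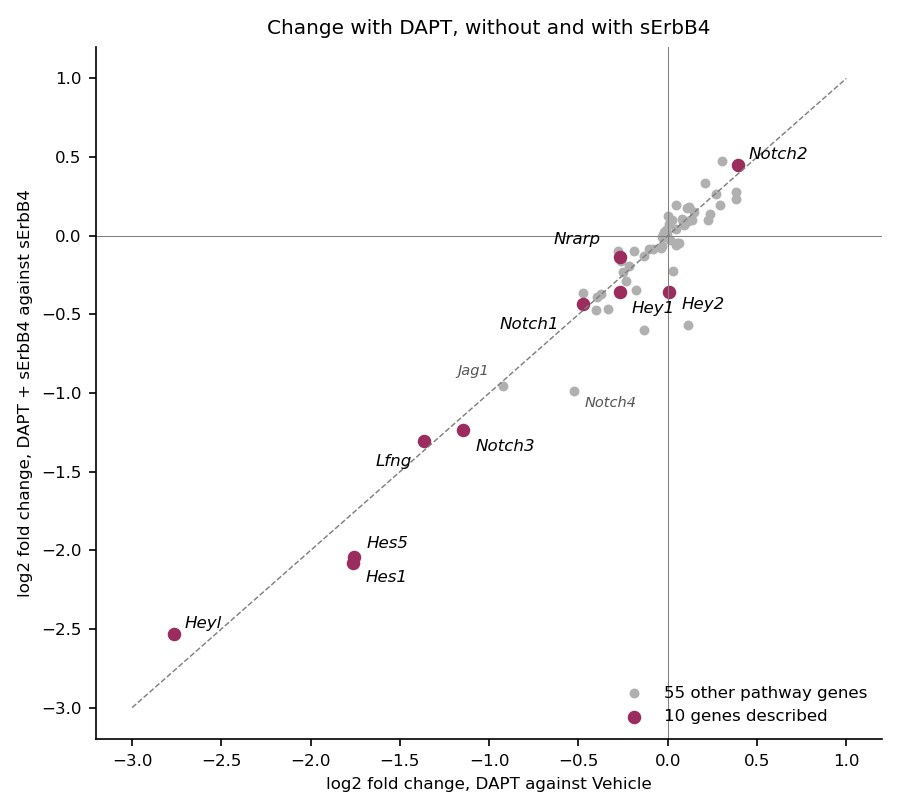
Log2 fold change in DAPT against Vehicle (x axis) and in DAPT + sErbB4 against sErbB4 (y axis) for the 10 genes (large points, named) and 55 other pathway genes (gray points). The dashed line marks equal changes. Hes1, Hes5, Heyl, Lfng and Notch3 lie farther below 0 on both axes than Jag1, and Notch2 lies above 0 on both.

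Genes that mark cell types moved with DAPT beside the Notch genes, and their part in these results was not tested. Counts of marker genes are to be read against the 11.6% and 11.7% of all genes called in the 2 DAPT comparisons. All 8 proliferation genes were lower in both comparisons, and their summed level was 66.1 to 73.6 CPM in Vehicle and 61.3 to 66.4 CPM in sErbB4, against 26.0 to 28.1 CPM in DAPT and 24.6 to 26.3 CPM in DAPT + sErbB4. Of 7 oligodendrocyte precursor genes 4 were lower in both, with sums of 1317 to 1345 CPM in Vehicle and 716 to 759 CPM in DAPT, and Olig1 had log2 fold changes of -1.33 and -1.36. Olig1 was the largest part of these sums, at 707 CPM in Vehicle and 282 CPM in DAPT. Of 9 radial glia and neural stem cell genes 3 were lower and 1 higher in both, with Fabp7 at -1.93 and -1.86 and Prom1 at 0.97 and 1.05. Of 8 astrocyte genes 2 were lower and 2 higher in both, and sums were 5466 to 6189 CPM in Vehicle and 6329 to 6719 CPM in DAPT. Gfap, which was not called in either comparison, made up most of these sums (4230 CPM in Vehicle and 4972 CPM in DAPT).
Which cells of these cultures held Notch3 and Heyl RNA was not tested. The pericyte and smooth muscle list is given because both are also known as genes of those cells. Of its 10 genes 6 were tested and 3 were lower in both comparisons, with sums of 48.2 to 51.3 CPM in Vehicle, 40.2 to 47.1 CPM in sErbB4, 25.3 to 27.7 CPM in DAPT and 22.5 to 23.8 CPM in DAPT + sErbB4. Vtn had log2 fold changes of -2.32 and -2.36 and Tagln of -1.16 and -1.17, and much of the fall of the sum lay in these genes (Vtn from 15.6 CPM in Vehicle to 3.11 CPM in DAPT and Tagln from 12.1 to 5.33 CPM). The third gene called lower in both, the pericyte gene Rgs5, had -0.875 and -0.718 (4.63 CPM in Vehicle and 2.51 CPM in DAPT). The pericyte receptor gene Pdgfrb (-0.21 and -0.25) and the smooth muscle actin gene Acta2 (-0.06 and -0.23) were not called in either comparison. The contractile gene Myh11 and the pericyte genes Abcc9, Kcnj8 and Des were at or under 0.266 CPM in every group mean and were not tested. Neuronal genes were called higher for 4 of 10 in DAPT against Vehicle and 1 of 10 in DAPT + sErbB4 against sErbB4, and endothelial genes for 0 of 5 tested in both (edgeR, 0 at an unadjusted p under 0.05). Of 8 microglia genes 1 and 2 were lower. Of 6 fibroblast genes 2 were higher and 3 lower in each comparison.

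The genes most like each of the 10 were taken as the 3 with the smallest root mean square difference between group means of log2 CPM, centered on each gene's own mean, over the 4 groups and among 10886 or 10887 genes of at least 5 CPM. For Lfng they were Olig1, Prc1 and Grin2c (0.031 to 0.039). For Notch3 they were Hip1, Mcm5 and Srebf1 (0.019 to 0.023), and for Notch1 Odc1, Hadh and Oxnad1 (0.011 to 0.015). The pattern of Notch2 was nearest to those of Apod, Mt1 and Appl2 (0.011 to 0.018). Hes1 and Hes5 shared the same 3 nearest genes, Pbk, Etv4 and Igfbp3 (0.053 to 0.078 and 0.043 to 0.082). Heyl was nearest to Fabp7, Slco1c1 and Btbd17 (0.063 to 0.093), Hey1 to Nr2e1, Fubp3 and Chpf2 (0.009 each), Hey2 to Ptgr1, Rest and Cryzl2 (0.035 to 0.041), and Nrarp to Fgfr1op2, Nr2f6 and Rxylt1 (0.005 to 0.008). The log2 CPM used here holds a prior count, which shrinks the changes of genes with few counts. The genes nearest to Heyl therefore depend on it. In DAPT against Vehicle, Fabp7 had -1.93, while the fitted value of Heyl was -2.76. Patterns over 4 group means share all libraries, and such likeness is a description.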

How the data were processed

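Polyadenylated RNA of 12 libraries was sequenced by the authors, who used Trimmomatic for trimming, HISAT2 for alignment to mm10, StringTie for assembly and IsoformSwitchAnalyzeR for gene values, per the paper and the processing notes (versions not given in the sources used here). For each gene and library the authors deposited an estimated count with no scaling between libraries, and none above 0 is whole. They were rounded for testing. The 1976 loci with no name, with 43.4 to 51.8% of a library's counts, were left out. Rn45s held 31.4 to 44.6% of named counts. With R 4.3.3 and edgeR 4.0.16, counts were filtered by filterByExpr, scaled by TMM (factors 0.926 to 1.18) and tested by quasi-likelihood (4 group means, 8 residual degrees of freedom), after the test was run on simulated data. Alternatives were RLE and no scaling, other filters, DESeq2 1.42.0, limma 3.58.1 on log2(CPM + 2) with cyclic loess, a replicate block, and leaving out libraries. The 10 genes and the lists were chosen with earlier results of these data known. Of the pathway lists, genes called in either DAPT comparison are named, at most 12, apart from 1 that is not reported here. Of the marker lists, named genes are among the 2 highest or, if called in both, the 2 most changed. Rgs5, Pdgfrb, Acta2, pericyte genes at very low levels, Map2 and Rbfox3 were named after their values were seen. Loci are from GENCODE mouse release 21.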

Additional observations from a re-analysis of the deposited data

How the results depend on the processing

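Lfng, Notch3, Hes1 and Hes5 were called lower in both DAPT comparisons under each of the 22 alternatives run, and Hey1 in DAPT + sErbB4 against sErbB4 as well. Notch1 was called in 21 of 22 in DAPT against Vehicle (log2 fold change -0.51 to -0.27) and in 20 of 22 in DAPT + sErbB4 against sErbB4 (-0.54 to -0.28). Notch2 was called in 17 (0.36 to 0.59) and 16 of 22 (0.32 to 0.65). Heyl was called in 18 of 20 and 16 of 21 that gave it an adjusted p, with -0.32 and -0.26 on log2(CPM + 2), which understates changes of low genes. In DESeq2 its adjusted p was NA. Leaving out sErbB4 replicate 1 and Vehicle replicate 3 together was chosen after seeing the data, and with it Notch1 was at -0.28 in DAPT + sErbB4 against sErbB4, under the fold limit.

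Signs turned only in values that were not called. With no TMM factor, the log2 value in sErbB4 against Vehicle was 0.12 for Hes1, 0.08 for Hes5, 0.11 for Hey1, 0.09 for Lfng, 0.02 for Notch1 and 0.06 for Nrarp, and in DAPT + sErbB4 against DAPT it was -0.11 for Heyl, -0.11 for Lfng and -0.06 for Nrarp. Without both sErbB4 replicate 1 and Vehicle replicate 3, Hes1 was at 0.04, Hey2 at -0.27 and Nrarp at 0.01 in sErbB4 against Vehicle, and Hey2 at -0.14 in DAPT against Vehicle. Over the leave-one-out fits, values in sErbB4 against Vehicle ran from -0.13 to 0.09 for Hes1, -0.38 to 0.15 for Hes5, -0.06 to 0.02 for Hey1, -0.13 to 0.31 for Hey2, -0.45 to 0.06 for Heyl, -0.12 to 0.03 for Lfng, -0.07 to 0.08 for Notch3 and -0.14 to 0.02 for Nrarp. In DAPT + sErbB4 against DAPT they ran from -0.52 to 0.76 for Heyl, -0.01 to 0.05 for Lfng and -0.01 to 0.14 for Nrarp, and in DAPT against Vehicle from -0.13 to 0.30 for Hey2.

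Over all genes, DAPT against Vehicle gave 3210 calls with no TMM factor, and the mean DAPT effect 1375 by limma. In sErbB4 against Vehicle the calls numbered 1 with no TMM factor, 18 by DESeq2, 0 from only the libraries compared, and 1 to 5 without single replicates. In DAPT + sErbB4 against DAPT there were 8 by DESeq2, 2 from only the libraries compared and 0 to 2 without single replicates, and the interaction had 4 by DESeq2 and 1 to 3 without single replicates. The causes of these differences were not tested.

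Libraries with the same replicate number did not deviate together throughout (r from -0.282 to 0.356 over 18 pairs, 8 over 0.1, with 4 of 12 libraries nearest to their own number), so they were treated as unpaired. All pairs of Vehicle with DAPT (0.122 to 0.295) and of DAPT with DAPT + sErbB4 (0.025 to 0.356) were positive. Every other pairing of groups held both signs, and the check does not show whether platings were shared. With a replicate block, 7 and 8 of the 10 genes were called in the 2 DAPT comparisons, 1750 and 1778 of all genes, and 2 genes in sErbB4 against Vehicle. Depth limited Heyl, at 0 to 3.89 estimated counts per library with DAPT. Hes5 was at 16.7 to 37.7, and what set its spread was not tested.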
